A study of Mus musculus with 20 samples.

Results

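Genes of the red cell were followed through the brains of mice with spinal muscular atrophy (SMA) and of their control littermates. They were the 8 rows of the deposited table named Hba-a1, Hba-a2, Hbb-bs, Hbb-bt, Alas2, Slc4a1, Slc25a37 and Bpgm, of 45700 rows in all. All 8 passed the filter for testing, a mean of at least 1 FPKM (fragments per kilobase of transcript, relative to all fragments mapped in a library) over the 20 libraries, as did 15247 genes in total. The genes were chosen by name for their place in haemoglobin and in the erythroid lineage. They are called red-cell genes here by that function, and which cells of the brain tissue held each transcript was not tested.

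SMA brains came from mice of the “Taiwanese” line, Smn -/- with the human SMN2 transgene on 1 allele (SMN2 tg/0), and control brains from littermates that were Smn -/+ with the same transgene, both on a congenic FVB background. The controls were therefore heterozygous for Smn and also carried human SMN2. Each genotype and fraction had 2 libraries of brains taken early in the symptomatic phase, on postnatal day 5. It had 3 of brains taken late in it, on postnatal day 7. The labels do not say whether both fractions of 1 replicate number came from 1 brain, so mice are counted here by number. Lysates were run on sucrose gradients, and RNA was sequenced from all fractions pooled (total cytoplasmic RNA, the transcriptome) and from the polysomal fractions pooled (polysomal RNA, the translatome). Brains were snap-frozen after dissection and are not described as perfused, so blood standing in the vessels may have been sequenced with the tissue. The constitutive genotype also reached the blood, the vessels and the marrow, and the table does not separate these from neural cells. Neuron and glia markers fitted the labelled tissue: all 14 listed genes passed the filter, with Tubb3, a neuronal tubulin, at a mean of 740.7 FPKM. Sex was read from Xist against Y-linked transcripts, and both fractions of a number matched in 10 of 10. By number, 2 of the 2 early controls and 1 of the 2 early SMA mice were male. Of the late mice, 1 of the 3 controls and 2 of the 3 SMA mice were male.

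A single group of libraries stood apart. In the 2 early control polysomal libraries, 66 tested genes were listed at 0 FPKM that were above 0 in each of the other 18 libraries, 6 of them with a mean of at least 100 FPKM. Tubb3 was among these, at 0 in both libraries and at 711.98 FPKM or more in the other 8 polysomal libraries. In no other group were more than 2 genes listed at 0 in this way. The 8 red-cell genes were above 0 in every library. Results that rest on these libraries are given below together with values that do not.

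Adult haemoglobin joins a pair of alpha chains to a pair of beta chains, each of which holds a haem. In the mouse the alpha chain comes from the neighbouring genes Hba-a1 and Hba-a2, and the adult beta chain from Hbb-bs and Hbb-bt. Alas2 encodes the erythroid 5-aminolevulinate synthase, the first and rate-limiting enzyme of haem synthesis, and Slc25a37 encodes mitoferrin, which brings iron into the mitochondrion for that synthesis. Slc4a1 encodes band 3, the anion exchanger of the red cell membrane, and Bpgm encodes the mutase that makes 2,3-bisphosphoglycerate, which lowers the oxygen affinity of haemoglobin. Red cells enter the circulation as reticulocytes, which have lost their nucleus but still hold ribosomes and a globin-rich mRNA pool. Globin transcripts in a tissue are therefore widely read as a trace of its blood, although neurons and glia have also been described to make some.

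On GRCm38 (Gencode M21), Hba-a1 (ENSMUSG00000069919.7) lies at chr11:32283511-32284465 and Hba-a2 (ENSMUSG00000069917.7) at chr11:32296489-32297298, both on the plus strand. Hbb-bs (ENSMUSG00000052305.5) lies at chr7:103826534-103828096 and Hbb-bt (ENSMUSG00000073940.3) at chr7:103812524-103813996, both on the minus strand. Alas2 (ENSMUSG00000025270.11, plus strand) spans chrX:150547375-150570638, Slc4a1 (ENSMUSG00000006574.13, minus strand) chr11:102348824-102366203, Slc25a37 (ENSMUSG00000034248.7, minus strand) chr14:69241848-69285112 and Bpgm (ENSMUSG00000038871.5, plus strand) chr6:34476207-34505613. The table gives Alas2 a merged locus that also takes in Apex2, Pfkfb1 and Mir3620, and Slc25a37 one that takes in Synb and 4 further annotated loci, so reads at those loci had to be divided among overlapping genes.

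The coding sequences of each globin pair are nearly the same, which is why the stretch that tells them apart is shown. Hba-a1 and Hba-a2 differ at 1 of 426 coding bases, C381T, and Hbb-bs and Hbb-bt at 1 of 441, C417T (positions from 1 at the A of the start codon, Hba-a1 or Hbb-bs first). The differing base is in capitals in the 61 coding bases below, from Gencode M21 transcripts on GRCm38, with positions 351 to 411 of the alpha and 381 to 441 of the beta genes.
Hba-a1: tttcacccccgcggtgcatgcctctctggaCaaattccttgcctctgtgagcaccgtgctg
Hba-a2: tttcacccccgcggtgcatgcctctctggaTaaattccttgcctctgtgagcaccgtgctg
Hbb-bs: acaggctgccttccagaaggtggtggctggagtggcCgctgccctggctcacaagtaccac
Hbb-bt: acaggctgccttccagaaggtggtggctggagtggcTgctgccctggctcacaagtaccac

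Because reads were 100 bases long, many could not be assigned to a copy by sequence. Of the 455 windows of 100 bases in the Hba-a2 transcript, 339 (74.5%) also occurred in Hba-a1, and these were 56.5% of the 600 windows of Hba-a1. Of the 529 windows of Hbb-bs, 331 (62.6%) occurred in Hbb-bt, where they were 54.8% of 604. The split of FPKM between the copies is thus uncertain, more so as FVB reads were aligned to the reference strain, and pair sums are given beside the single genes. The start sites of the alpha pair also lie behind nearly the same sequence: the 250 bases upstream share an identical run of 247 bases, against 14 bases for Hbb-bs and Hbb-bt. The last 200 bases before Hba-a2 (RefSeq, GRCm38.p6, chr11:32296289-32296488, plus strand) are shown because both alpha genes rose between the stages, as described below. Capitals mark GATA, the letters that GATA factors recognise, CACCC for KLF factors, CCAAT for the factors named after it and ATATAA for the TATA-binding protein.
Hba-a2 upstream: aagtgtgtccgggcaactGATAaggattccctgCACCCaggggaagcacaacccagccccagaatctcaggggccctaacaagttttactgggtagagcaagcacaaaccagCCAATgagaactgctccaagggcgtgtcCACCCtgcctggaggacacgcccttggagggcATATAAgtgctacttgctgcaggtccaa

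Such letters are common. Of 32851 upstream windows of 250 bases, GATA or TATC, its reading on the other strand, occurred in 53.6%. CACCC or GGGTG occurred in 52%, CCAAT or ATTGG in 33.8% and ATATAA or TTATAT in 9.1%. Of the 8 genes, 6 were matched in the upstream table, all but Slc4a1 and Slc25a37.

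Hba-a1 and Hbb-bs were among the abundant mRNAs of these brains, and the erythroid transcripts other than globins were far scarcer than these. On the FPKM scale, which is per transcript length, Hba-a1 ranged from 355.18 to 2459 with a median of 1230.0 over the 20 libraries, and it ranked between 31 and 195 among all genes of a library. Hbb-bs ranged from 541.13 to 1554.21 and ranked between 22 and 93. The 4 globin genes together made up 1011 to 4287 FPKM, or 0.177% to 0.480% of the summed FPKM of a library. Hba-a2 stood at 2.59% to 12.6% of Hba-a1, and Hbb-bt at 11.8% to 18.8% of Hbb-bs. Hba-a2 thus ranged from 17.64 to 112.65 FPKM and overlapped Bpgm. Levels of the remaining genes fell in the order Bpgm, Alas2, Slc25a37 and Slc4a1, with Bpgm between 39.39 and 56.22 FPKM, Alas2 between 8.4 and 40.03, Slc25a37 between 1.5 and 5.18 and Slc4a1 between 0.29 and 3.52. Ranges of Bpgm and Alas2 overlapped narrowly and those of Slc25a37 and Slc4a1 broadly, although in total RNA Slc25a37 lay above Slc4a1 in each of the 10 libraries. Bpgm varied least, with a highest value 1.43 times the lowest, and Slc4a1 varied most of the 8. Counts were not given with the FPKM, so the depth behind a single value is unknown and no counting interval is printed.

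**Figure D1:**
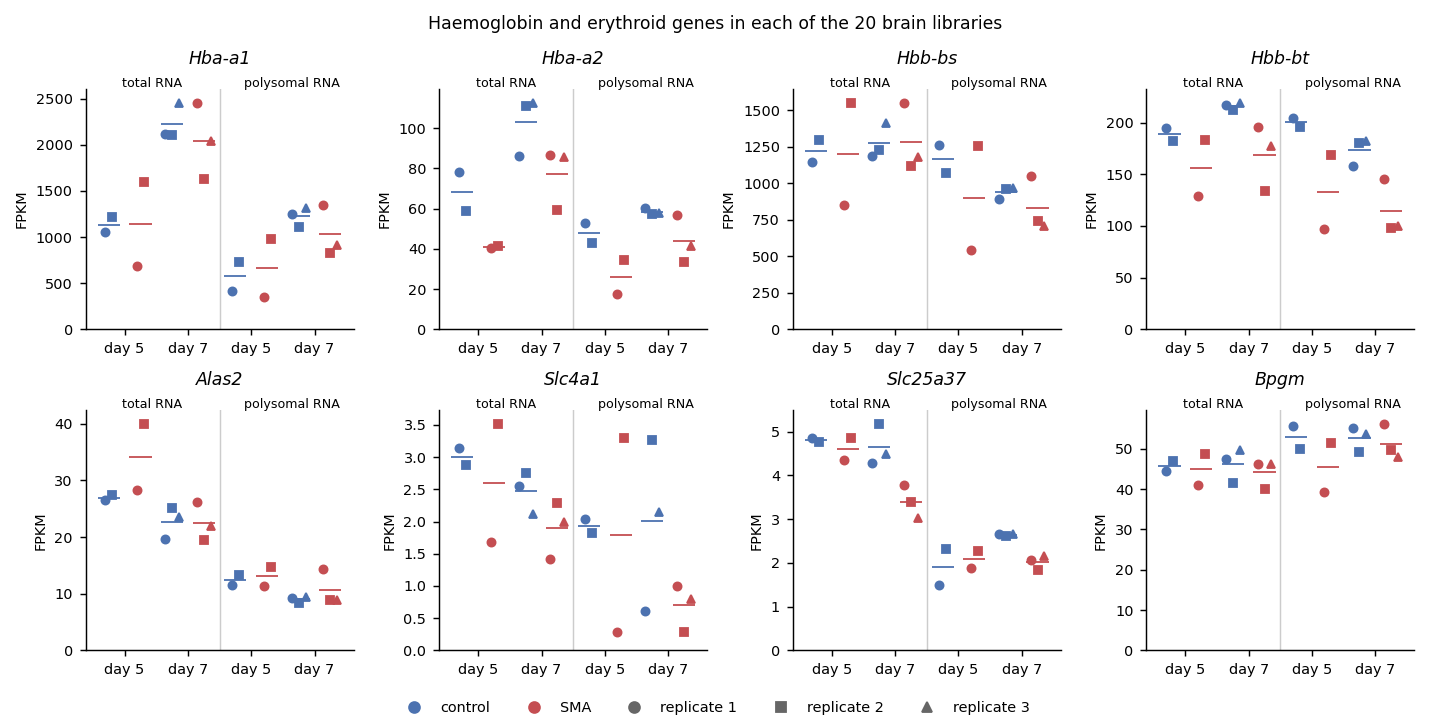
FPKM (linear axis from 0) of each of the 8 genes in each of the 20 libraries, control in blue and SMA in red, with total RNA left and polysomal RNA right of the grey line; symbols give the replicate number and bars the group mean. Hba-a1 in total RNA lies higher on day 7 than on day 5, Alas2 and Slc25a37 lie lower in polysomal than in total RNA, and the 2 early SMA mice lie far apart for the globins other than Hba-a2 in total RNA.

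The most marked feature of the globins was the spread between the 2 early SMA mice. In total RNA their globin sums were 1711 and 3375 FPKM, below and above both control brains (2468 and 2754). In polysomal RNA the same order held, at 1011 and 2444 FPKM, against 1938 and 2042 in the controls. Each of the 4 globin genes, Alas2, Slc4a1, Slc25a37 and Bpgm was lower in replicate 1 than in replicate 2 in both fractions. These 2 mice also differed in sex, and the part of sex in the spread was not tested. The day-5 standard errors in total RNA were accordingly wide for Hba-a1 (0.53), though not for Hba-a2 (0.17), Slc25a37 (0.13) or Bpgm (0.11).

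Between day 5 and day 7 the alpha globins rose in total RNA and the beta globins did not pass the test, and the balance of the 2 chains turned over. Tests were made with limma across all tested genes on log2(FPKM + 0.1), and a gene was taken as changed at an unadjusted p under 0.05, while the p printed beside each value is the one adjusted by Benjamini-Hochberg over all tested genes. These p-values rest on the spread between libraries of a group, pooled over the groups of a fit. In the stage and fraction comparisons both genotypes share that estimate. The stage change of Hba-a1 in total RNA thus had a standard error of 0.34 in controls and in SMA brains. The wide spread of the early SMA pair therefore enters the control p-values too. Total and polysomal libraries of a number were treated as independent, except where the replicate number was set as a block. Stage differences cannot be told apart from whatever else separated the day-5 from the day-7 mice, such as litter or sex. Of the controls 2 of 2 were male on day 5 and 1 of 3 on day 7, and of the SMA mice 1 of 2 and 2 of 3.

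In total RNA, Hba-a1 was at 1050.1 and 1213 FPKM in the early control brains and at 2113, 2102 and 2459 FPKM in the late ones. It was at 689 and 1597 FPKM in the early SMA brains and at 2451, 1634 and 2044 FPKM in the late ones. Day-7 values lay above all day-5 values in both genotypes, narrowly so in SMA. The rise was 0.98 ± 0.34 (log2 change ± SE, adjusted p = 0.0809 by limma) in controls and 0.94 ± 0.34 (adjusted p = 0.0798) in SMA. Without early SMA replicate 1 the SMA value was 0.34 and no longer called, and without early SMA replicate 2 it was 1.55. It lost the call without late SMA replicate 1 (0.80) or late SMA replicate 3 (0.93) as well. The control value also lost its call without early control replicate 1 (0.87), early control replicate 2 (1.08) or late control replicate 3 (0.90). Under quantile normalization both lost the call, at 0.62 and 0.58.

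Hba-a2 rose in total RNA by 0.59 ± 0.21 in controls (adjusted p = 0.0783, limma), from 78.1 and 58.81 FPKM to 85.9, 110.77 and 112.65 FPKM. That call was lost without early control replicate 2 (0.39), late control replicate 2 (0.54) or late control replicate 3 (0.52). In SMA brains it rose by 0.89 ± 0.21 (adjusted p = 0.0198), from 40.57 and 41.28 FPKM to 86.61, 59.39 and 85.81 FPKM. Hbb-bs, by contrast, changed by 0.06 ± 0.26 (adjusted p = 0.898) in controls and 0.14 ± 0.26 (adjusted p = 0.719) in SMA brains, from 1144 and 1299.8 FPKM to 1185, 1229 and 1417 FPKM in controls. Hbb-bt changed by 0.20 ± 0.19 (adjusted p = 0.48) and 0.12 ± 0.19 (adjusted p = 0.669). Day-5 and day-7 values of Hbb-bs overlapped in both genotypes, and the SMA value was 0.58 with a call without early SMA replicate 2 and -0.29 without early SMA replicate 1.

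In polysomal RNA, Hba-a1 rose by 1.15 ± 0.45 in controls (adjusted p = 0.0802, limma), from 419 and 730.5 FPKM to 1247, 1112 and 1320.2 FPKM, and was 0.74 and not called without early control replicate 1. The call was also lost under quantile normalization (1.13), without any 1 of the late control replicates (1.09 to 1.21) and without late SMA replicate 3. In SMA brains the change was 0.77 ± 0.45 (adjusted p = 0.243), from 355 and 981 FPKM to 1348, 826 and 913 FPKM, and these overlapped. Hba-a2 rose in SMA polysomal RNA by 0.79 ± 0.31 (adjusted p = 0.0964), but was 0.31 and not called without early SMA replicate 1, and lost the call without most of the late libraries and with length and GC correction (0.60). In control polysomal RNA it changed by 0.29 ± 0.31 (adjusted p = 0.484).

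The sum of the alpha genes over the sum of the beta genes gives the same picture and depends less on how reads were split within a pair, whose copies differ somewhat in length. In total RNA the ratio was 0.842 and 0.858 in the early control brains and 0.743 and 0.943 in the early SMA brains. On day 7 it was 1.569, 1.535 and 1.571 in controls and 1.451, 1.352 and 1.566 in SMA brains. In polysomal RNA it rose from 0.322 and 0.610 to 1.242, 1.025 and 1.194 in controls, and from 0.585 and 0.711 to 1.173, 1.027 and 1.179 in SMA brains. In neither fraction did the stages overlap, whereas the genotypes overlapped at each stage in both fractions. No test is given for the ratio, which was formed from the chosen genes. Alpha and beta transcripts differ in base composition (57.2% and 56.9% GC for Hba-a1 and Hba-a2, 51.3% and 50.8% for Hbb-bs and Hbb-bt) but little in length (554 to 703 bases).

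**Figure D2:**
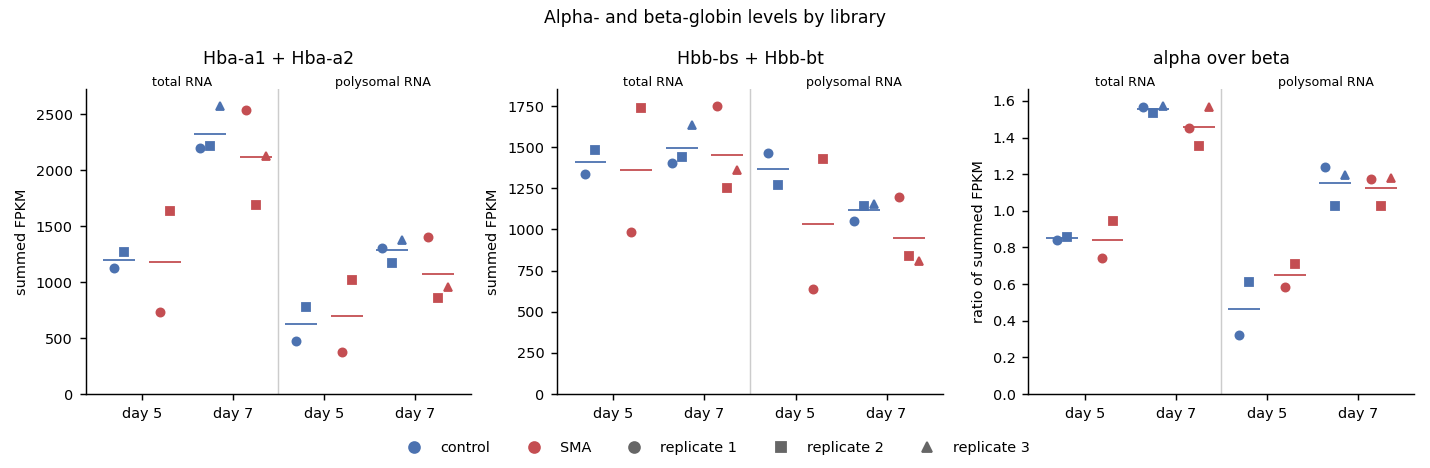
Summed FPKM of Hba-a1 and Hba-a2 (left), of Hbb-bs and Hbb-bt (middle) and the ratio of these sums (right) in each library, on linear axes from 0, with control in blue, SMA in red, symbols for replicate numbers and bars for group means. Alpha sums lie higher on day 7 than on day 5 except in SMA polysomal RNA, where they overlap, beta sums overlap except in control polysomal RNA, where they lie lower on day 7, and the ratio separates the stages in both fractions (0.743 to 0.943 against 1.352 to 1.571 in total RNA).

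Short transcripts as a class also moved between the stages in SMA brains. The median change of 583 protein-coding genes with transcripts under 1000 bases was 0.36 in SMA total RNA, 0.18 in SMA polysomal RNA, -0.03 in control total RNA and -0.15 in control polysomal RNA. With a correction for transcript length the change of Hba-a1 was 0.73 in SMA total RNA and 0.99 in control total RNA, both still called.

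Of the other genes, 2 fell in SMA total RNA. Alas2 fell by 0.59 ± 0.18 (adjusted p = 0.0477, limma), from 28.32 and 40.03 FPKM to 26.17, 19.48 and 21.88 FPKM, but by 0.34, and without a call, when early SMA replicate 2 was left out. Slc25a37 fell by 0.43 ± 0.12 (adjusted p = 0.0368), from 4.34 and 4.85 FPKM to 3.77, 3.39 and 3.03 FPKM, with no overlap of the stages. It lost the call with length correction (-0.31), with length and GC correction (-0.29) and without early SMA replicate 2 (-0.35). In control polysomal RNA Slc25a37 rose by 0.48 ± 0.17 (adjusted p = 0.0628), but was 0.19 and not called without early control replicate 1, whose polysomal library was among those that stood apart, and lost the call with length correction (0.38) and without any 1 of the late control replicates. In all, 2 of the 8 genes were called in control total RNA, where 37.8% of all tested genes were, 4 in SMA total RNA (41.6% of all), 2 in control polysomal RNA (49.5%) and 1 in SMA polysomal RNA (40.3%). The number of calls does not set the 8 genes apart from the rest.

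The next question was whether SMA brains held less red-cell RNA than controls. The globin sum did not separate the genotypes at either stage: late total RNA held 3601, 3655 and 4208 FPKM in controls and 4287, 2946 and 3490 FPKM in SMA brains. Late polysomal RNA held 2360, 2311 and 2532 FPKM in controls and 2603, 1697 and 1764 FPKM in SMA brains. The overlap there rested on late SMA replicate 1 alone. In bulk tissue fewer red cells and less RNA per cell cannot be told apart. Single genes fell in places, chiefly the minor copy of each pair and mitoferrin, and none of them passed adjustment.

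Hba-a2 was lower in early SMA total RNA, at 40.57 and 41.28 FPKM against 78.1 and 58.81 FPKM in controls, with no overlap. The change was -0.73 ± 0.17 (adjusted p = 0.551, limma), and the call was lost without SMA replicate 1 (-0.71) or SMA replicate 2 (-0.74), fits that leave 1 SMA library. In early polysomal RNA it was -0.95 ± 0.39 (adjusted p = 0.421), in late total RNA -0.43 ± 0.19 (adjusted p = 0.553) and in late polysomal RNA -0.45 ± 0.20 (adjusted p = 0.495), none of these called. Each was called under some settings, among them with genes above 0 in every library. Without 1 replicate number they ran from -1.43 to -0.47, from -0.55 to -0.25 and from -0.65 to -0.27. Short coding transcripts as a class had a median of -0.39 in early total and -0.37 in early polysomal RNA. Their late medians were 0.03 in total and 0.01 in polysomal RNA. After length correction Hba-a2 stood at -0.56 and was still called in early total RNA. Its partner Hba-a1, the bulk of the alpha RNA, changed by -0.11 ± 0.53 (adjusted p = 0.944) in early total and -0.14 ± 0.19 (adjusted p = 0.846) in late total RNA, so the alpha sums overlapped.

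Hbb-bt was lower in late SMA polysomal RNA, at 145.44, 97.95 and 99.69 FPKM against 157.79, 180.48 and 182.65 FPKM in controls. The groups did not overlap, and the change was -0.62 ± 0.17 (adjusted p = 0.356, limma). In late total RNA it stood at 195.78, 133.4 and 177.19 FPKM against 216.75, 212.6 and 219.44 FPKM, a change of -0.38 ± 0.15 (adjusted p = 0.524) that was not called, but was under several settings, and that ran from -0.49 to -0.22 without 1 replicate number. The major copy Hbb-bs changed by less than 0.01 (-0.0018 ± 0.16, adjusted p = 1) in late total RNA and by -0.20 ± 0.18 (adjusted p = 0.708) in late polysomal RNA. Hbb-bt as a percent of Hbb-bs was accordingly lower in late SMA brains, at 12.6, 11.92 and 14.98 against 18.29, 17.29 and 15.48 in total RNA, and at 13.82, 13.25 and 14.04 against 17.63, 18.78 and 18.80 in polysomal RNA. On day 5 the same percentages overlapped between genotypes, at 15.11 and 11.77 against 17.06 and 14.01 in total RNA. Since 54.8% of the read windows of Hbb-bt also occur in Hbb-bs, this shift within the pair rests on the remaining windows.

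Slc25a37 was lower in both fractions of late SMA brains. In total RNA it was at 3.77, 3.39 and 3.03 FPKM against 4.29, 5.18 and 4.48 FPKM, a change of -0.44 ± 0.12 (adjusted p = 0.389, limma). In polysomal RNA it was at 2.06, 1.83 and 2.15 FPKM against 2.65, 2.62 and 2.67 FPKM, a change of -0.38 ± 0.08 (adjusted p = 0.265). The genotypes did not overlap in either fraction. On day 5 the changes were -0.07 ± 0.13 (adjusted p = 0.819) and 0.15 ± 0.27 (adjusted p = 0.798), and the difference between the stages itself was -0.38 ± 0.17 (adjusted p = 0.486) in total and -0.53 ± 0.25 (adjusted p = 0.388) in polysomal RNA, neither called. The polysomal value rests on the early control libraries that stood apart: it was -0.23 without early control replicate 1 and -0.82, with a call, without early control replicate 2, and it was called with 1 model over all 20 libraries.

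Alas2, Slc4a1 and Bpgm did not pass the test between genotypes at either stage. Alas2 changed by 0.32 ± 0.20 (adjusted p = 0.574) in early total RNA, where it was 0.57 and called without early SMA replicate 1 and 0.07 without early SMA replicate 2, and by -0.02 ± 0.14 (adjusted p = 0.997) in late total RNA. Slc4a1 was erratic: in late polysomal RNA it was at 1, 0.29 and 0.8 FPKM in SMA and at 0.61, 3.26 and 2.15 FPKM in controls (-1.27 ± 0.71, adjusted p = 0.584, limma), a change that was -1.92 with a call without late control replicate 1 and -0.80 without late control replicate 2. In early polysomal RNA it was at 0.29 and 3.29 FPKM in the SMA mice, and its change of -0.82, not called, turned to 0.74 with a call without early SMA replicate 1. Bpgm was the steadiest of the 8, with changes between -0.23 ± 0.17 in early polysomal and -0.03 ± 0.11 in early total RNA. Of the 8 genes, 1 was called in early total RNA (8.25% of all tested genes were), 0 in early polysomal RNA (12.5%), 1 in late total RNA (9.54%) and 2 in late polysomal RNA (10.7%). Leaving out late SMA replicate 1, the late SMA number with the highest globin sum, gave 5 calls in late polysomal RNA, all lower in SMA, with Hba-a1 at -0.49 and Hbb-bs at -0.38. Leaving out early SMA replicate 2 gave 3 calls in early polysomal RNA in place of 0. The effect of SMA differed between the stages for 0 of 8 genes in total RNA (10.1% of all tested genes) and 0 of 8 in polysomal RNA (13.7%).

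**Figure D3:**
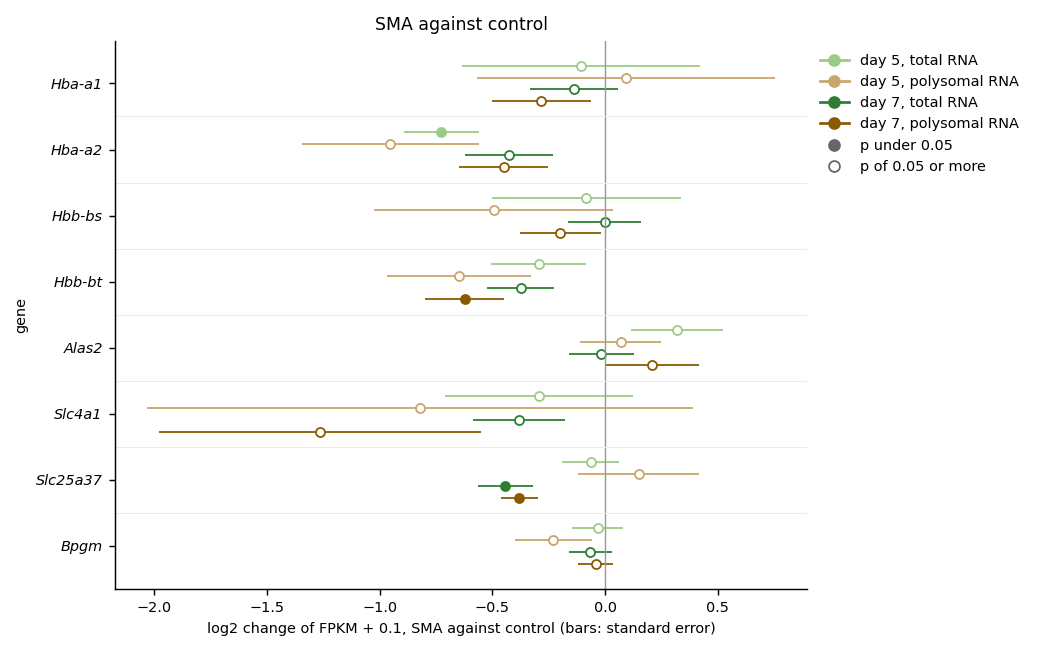
Log2 change of FPKM + 0.1 in SMA against control for the 8 genes (horizontal axis, 0 marked by the grey line), with bars of 1 standard error, in total and polysomal RNA on days 5 and 7; filled points have an unadjusted p under 0.05. Most points lie left of 0, and only Hba-a2 (early total), Slc25a37 (late total and polysomal) and Hbb-bt (late polysomal) are filled.

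Polysomal against total RNA shows which transcripts were on polysomes more or less than their level in the cytoplasm. The estimate was below 0 in all 4 genotype and stage groups for 6 of the 8 genes, in 3 of the 4 for Hbb-bt and in none for Bpgm. FPKM are relative within a library, and their sum was lower in polysomal libraries. A lower polysomal FPKM therefore need not be a smaller share of that sum. On average the 4 globins held 0.29% of it in total and 0.33% in polysomal RNA of early controls. In early SMA brains they held 0.30% in both. On day 7 they held 0.42% and 0.37% in controls and 0.41% and 0.32% in SMA brains. Summed FPKM were 790791 to 997685 in total and 571462 to 657670 in polysomal libraries, while the median change over all tested genes was at most 0.05.

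Alas2, for haem synthesis, was lower on polysomes in the 4 groups. It stood at 26.51 and 27.45 FPKM in early control total RNA and at 11.48 and 13.28 FPKM in the matching polysomal RNA, a change of -1.12 ± 0.20 (adjusted p = 0.0585, limma) that was -1.04 and not called without early control replicate 1. In early SMA brains the change was -1.37 ± 0.20 (adjusted p = 0.0674), in late controls -1.31 ± 0.19 (adjusted p = 0.00212) and in late SMA brains -1.09 ± 0.19 (adjusted p = 0.00551). Late control values were 19.68, 25.06 and 23.48 FPKM in total and 9.33, 8.4 and 9.46 FPKM in polysomal RNA. In no group did the fractions overlap, and between 2.75% and 4.5% of the tested genes had a smaller value than Alas2.

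Slc25a37 was also lower on polysomes in the 4 groups. The change was -1.32 ± 0.22 (adjusted p = 0.0498) in early controls, -1.11 ± 0.22 (adjusted p = 0.114) in early SMA brains (-1.06 and not called without early SMA replicate 1), -0.79 ± 0.10 (adjusted p = 0.00114, limma) in late controls and -0.72 ± 0.10 (adjusted p = 0.00181) in late SMA brains. Values in late controls were 4.29, 5.18 and 4.48 FPKM in total and 2.65, 2.62 and 2.67 FPKM in polysomal RNA.

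Among the globins the alpha estimates lay further below 0 than the beta estimates. On day 7 Hba-a1 changed by -0.86 ± 0.20 (adjusted p = 0.0234, limma) in controls and by -1 ± 0.20 (adjusted p = 0.0115) in SMA brains, a mean polysomal level of 55.2% and 50.4% of the total level. Hba-a2 changed by -0.81 ± 0.21 (adjusted p = 0.0329) and -0.83 ± 0.21 (adjusted p = 0.0276). Hbb-bs changed by -0.44 ± 0.17 (adjusted p = 0.128) and -0.63 ± 0.17 (adjusted p = 0.0368), and Hbb-bt by -0.32 ± 0.17 (adjusted p = 0.264) and -0.57 ± 0.17 (adjusted p = 0.0546), the latter -0.44 and not called without late SMA replicate 3. The difference between alpha and beta was not tested, but in each of the 4 groups the polysomal alpha to beta ratios lay below all those of total RNA. On day 5 none of the 4 globins passed the test, with Hba-a1 at -1.03 ± 0.64 (adjusted p = 0.338) in controls and -0.83 ± 0.64 (adjusted p = 0.526) in SMA brains and Hbb-bs at -0.07 ± 0.49 (adjusted p = 0.959) and -0.48 ± 0.49 (adjusted p = 0.63). With the replicate number as a block, which takes the fractions of 1 number as 1 brain, Hba-a1 was called lower on day 5 in both genotypes at the same values. Its level was lower in the polysomal library of each early number, at 419 against 1050.1 and 730.5 against 1213 FPKM in controls and at 355 against 689 and 981 against 1597 FPKM in SMA brains. The block also gave a call to Hbb-bt in late controls.

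The size of the late globin values depended on the scaling of the libraries. Under quantile normalization the late control value of Hba-a1 shrank to -0.25, that of Hbb-bs to -0.08 and that of Hbb-bs in late SMA brains to -0.23, and each lost the call. Hbb-bs in late controls also lost the call without any 1 of the 3 control mice, at -0.45, -0.47 and -0.38. Short coding transcripts as a class lay slightly higher on polysomes, with medians of 0.10 in both late groups.

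Slc4a1 passed the test in late SMA brains (-1.44 ± 0.56, adjusted p = 0.119, limma), at 1.42, 2.29 and 2 FPKM in total and 1, 0.29 and 0.8 FPKM in polysomal RNA, but stood at -0.84 and was not called without late SMA replicate 2, and lost the call under the replicate block, under quantile normalization (-1.27) and without late SMA replicate 3 or late control replicate 3. Bpgm was the exception in direction, with 0.21 ± 0.09 (adjusted p = 0.146) in late SMA and 0.19 ± 0.09 (adjusted p = 0.201) in late control brains. The late SMA value lost the call under quantile normalization (0.15), 1 model over all 20 libraries, each length and GC correction (0.15 to 0.17) and 4 of the 6 fits without 1 replicate number. The late control value was called only under the block and with equal medians. In all, 2 of 8 genes were called in early controls (27.7% of all tested genes), 2 in early SMA brains (17.7%), 5 in late controls (28.7%) and 8 in late SMA brains (30.2%), 7 of these lower and 1 higher on polysomes. After adjustment 1, 0, 4 and 5 remained. The median of the 8 genes was -0.67 in late controls and -0.78 in late SMA brains, against 0.05 over all tested genes in both. The early control counts rest on the libraries that stood apart, and the late counts do not.

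**Figure D4:**
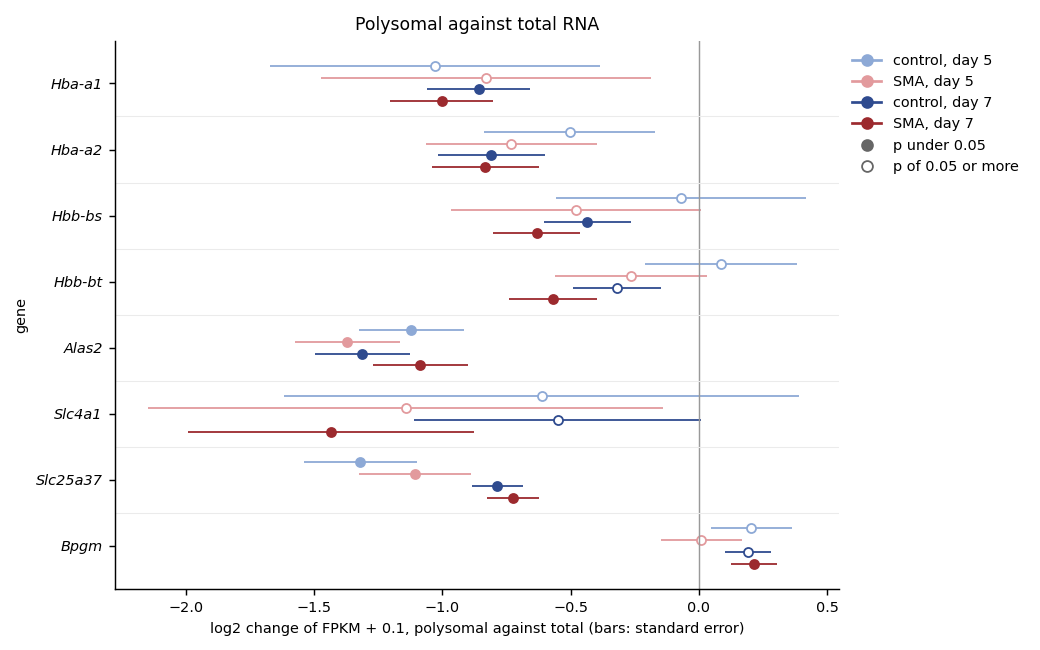
Log2 change of FPKM + 0.1 in polysomal against total RNA for the 8 genes (horizontal axis, 0 marked by the grey line), with bars of 1 standard error, in control and SMA brains on days 5 and 7; filled points have an unadjusted p under 0.05. Alas2 and Slc25a37 are filled and left of 0 in the 4 groups. Globins are filled on day 7 only, and Hbb-bt there only in SMA brains. Bpgm lies at or right of 0, and Bpgm and Slc4a1 are filled only in late SMA brains.

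Polysome association did not differ detectably between the genotypes. The interaction of genotype and fraction was called for 0 of 8 genes on day 5 (2.32% of all tested genes at an unadjusted p under 0.05) and 0 of 8 on day 7 (2.07%), all with an adjusted p of 1 by limma. The values on day 7 ran from -0.88 ± 0.79 for Slc4a1 (adjusted p = 1) to 0.23 ± 0.26 for Alas2 (adjusted p = 1), and that of Hba-a1 was -0.14 ± 0.29 (adjusted p = 1). The Slc4a1 value was -1.56 with a call without late control replicate 1 and -0.29 without late SMA replicate 2. On day 5, without early SMA replicate 2, Slc4a1 (-1.58) and Hbb-bt (-0.50) were called. Standard errors for the alpha globins were near 0.29 on day 7 and 0.91 (Hba-a1) and 0.47 (Hba-a2) on day 5, so modest differences on day 7 and even large ones on day 5 were not detectable.

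The low polysomal share of Alas2 invited a look at its leader sequence. Iron-responsive elements are hairpins in the mRNAs of iron and haem metabolism that bind iron regulatory proteins, which hold back translation when iron is low. Letters of that kind, CNNNNNCAGTG flanked by 5 base pairs that can form a stem, were searched on the transcript strand of the 5′ UTR of 20701 genes and found in 20 (0.0966%). Among the 8 genes they were found in Alas2 alone, at bases 85 to 111 of a transcript whose 5′ UTR has 126 bases. The loop letters are in capitals.
Alas2: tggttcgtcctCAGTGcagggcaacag

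Of the 20 genes, 12 passed the filter. In late controls 5 of them were lower and 4 higher on polysomes, and the same numbers held in late SMA brains, where 28.7% and 30.2% of all tested genes were called in either direction. Those lower included the ferritin chains, with Fth1, the heavy chain, at -2.04 ± 0.06 (adjusted p = 1.1e-07, limma) and Ftl1, the light chain, at -2.12 ± 0.14 (adjusted p = 2.25e-05) in late controls. The iron exporter Slc40a1 stood at -0.67 ± 0.23 (adjusted p = 0.0906). A match of letters is a description, and the part of the element in these values was not tested.

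Other genes of the red cell were followed in fixed lists. Of 7 globins and their chaperone, 6 were in the table, all but Ahsp, and 2 passed the filter, Hbq1a (theta globin, mean 3.016 FPKM) and Hbq1b. The embryonic Hbb-bh1, Hbb-y and Hba-x had means of 0.0735, 0.032 and 0.0135 FPKM and were listed at 0 in 6, 14 and 17 libraries, and Hbb-bh2 in all 20. Hbq1b was lower in SMA in early polysomal (-0.59, adjusted p = 0.386, limma), late total (-0.74 ± 0.14, adjusted p = 0.274) and late polysomal RNA (-0.70, adjusted p = 0.462). In late total RNA it was at 1.11, 1.28 and 1.24 FPKM against 1.71, 2.26 and 2.33 FPKM, with no overlap. Hbq1a did not pass the test in any of the 4 genotype comparisons.

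Of 9 erythroid transcription factors and receptors, 3 passed the filter, Lmo2 at a mean of 10.02 FPKM, Zfpm1, the partner of Gata1, at 8.742 FPKM and Tal1 at 3.06 FPKM. Lmo2 and Tal1 are also made outside the erythroid lineage, in vessels and neurons. The others had means under 1 FPKM. Gata1, the master regulator of the lineage, had a mean of 0.0175 FPKM and was listed at 0 in 11 libraries, Gfi1b was listed at 0 in 14, and Klf1 had a mean of 0.117 FPKM. Lmo2 was lower in SMA in early total (-0.59, adjusted p = 0.551, limma), early polysomal (-0.55, adjusted p = 0.381) and late polysomal RNA (-0.30, adjusted p = 0.285). Zfpm1 was listed at 0 in both early control polysomal libraries and stood between 6.31 and 16.3 FPKM in the others, and no fold is given for it there.

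Of 17 genes of the red cell membrane and its skeleton, 9 passed the filter and 8 lay under 0.5 FPKM. The latter included Epb42, a protein of the red cell skeleton, at a mean of 0.241 FPKM, while Rhag and Kel were listed at 0 in 6 and 4 libraries. The most abundant was Add2, an adducin also made in neurons, at 41.47 FPKM. In SMA 1 gene was higher in early total RNA (Sptb, 0.32, adjusted p = 0.551, limma), 0 were called in early polysomal RNA, 1 was higher and 1 lower in late total RNA (Aqp1, the water channel, 0.50, adjusted p = 0.365, and Dmtn, -0.19, adjusted p = 0.464) and 1 was higher in late polysomal RNA (Aqp1, 0.83, adjusted p = 0.301), against 8.25%, 12.5%, 9.54% and 10.7% of all tested genes called. Between the stages 2 of the 9 rose and 3 fell in total RNA of each genotype, against 37.8% (control) and 41.6% (SMA) of all genes called, with Dmtn and Xk higher and Sptb lower in both.

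All 8 enzymes of haem synthesis other than Alas2 passed the filter, led by Alad at 29.62 FPKM. Of the genotype comparisons only late total RNA gave a call, Alas1, the housekeeping counterpart of Alas2, at -0.19 ± 0.05 (adjusted p = 0.41, limma), where 9.54% of all tested genes were called. On polysomes 0 of 8 were called lower in any group, although 2 or 3 of the 8 estimates lay below 0 in each, and 2 were called higher in late SMA brains (Alas1, 0.28, adjusted p = 0.0478, and Urod, 0.38, adjusted p = 0.125), where 30.2% of all tested genes were called. Their median was 0.09 in late controls and 0.18 in late SMA brains. In control total RNA 4 of 8 fell between the stages, among them Alad, Alas1 and Urod, and 1 of 8 in SMA total RNA (Alas1), against 37.8% and 41.6% of all tested genes called.

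Of 25 genes high in late erythroblasts and reticulocytes, 20 passed the filter, led by Prdx2, a peroxiredoxin that neurons also make, at 680.4 FPKM. In SMA 1 was lower in early total RNA, 2 were higher and 2 lower in early polysomal RNA, 2 were higher and 3 lower in late total RNA, and 1 was higher and 1 lower in late polysomal RNA. Of all tested genes 8.25%, 12.5%, 9.54% and 10.7% were called in these comparisons. Steap3, a ferrireductase for iron uptake, was lower in each of these (-0.40, adjusted p = 0.551; -0.54, adjusted p = 0.393; -0.57, adjusted p = 0.41; -0.43, adjusted p = 0.411, limma). Abcb10, one of the early polysomal calls, was listed at 0 in both control libraries. On polysomes 4 were higher and 2 lower in late controls, where 28.7% of all tested genes were called, among them Bnip3l, a mitophagy receptor, at 0.49 (adjusted p = 0.00642) and Isg20, a nuclease, at -1.36 (adjusted p = 0.00863). List medians were between -0.14 and -0.03 for the genotype and between 0.04 and 0.12 for the fractions.

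Markers of other blood cells and of vessels show what moved with the red-cell genes. Of all tested genes 8.25%, 12.5%, 9.54% and 10.7% were called between genotypes in early total, early polysomal, late total and late polysomal RNA. Platelet markers gave 0 calls between genotypes among the 4 of 12 genes tested, led by Pf4 (10.88 FPKM), and their sum was 24.5 to 32.9 FPKM in late SMA and 26.2 to 29.4 FPKM in late control total RNA. None of the 10 lymphocyte markers passed the filter, with Cd79b highest at 0.311 FPKM and Cd3e at 0 in 11 libraries. Neutrophil markers were low, 4 of 14 tested, with Elane at 0 in 17 libraries, but the most abundant, S100a8, was higher in SMA in early total RNA (3.28 and 3.71 against 0.93 and 0.94 FPKM, 1.79 ± 0.12, adjusted p = 0.169, limma). It was called higher in early polysomal (1.20, adjusted p = 0.381) and late total RNA too (2.48 ± 0.94, adjusted p = 0.505), the latter at 21.83, 2.09 and 6.16 FPKM against 1.72, 1.41 and 0.53 FPKM. In late polysomal RNA its partner S100a9 was the 1 call (2.07 ± 0.69, adjusted p = 0.417). Late SMA replicate 1 had the highest neutrophil sum, 48.12 FPKM in total and 60.07 FPKM in polysomal RNA, against 6.36 to 17.68 FPKM in all other libraries. The same number had the highest globin sums of the late SMA brains, 4287 and 2603 FPKM. The part of blood content in these globin values was not tested.

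Vessel markers were lower in SMA while the globin sums overlapped. Of 14 endothelial markers, 10 were lower in early total, 9 in early polysomal, 11 in late total and 11 in late polysomal RNA, with 1 higher in late total RNA, against 8.25%, 12.5%, 9.54% and 10.7% of all tested genes called. Their sum in late total RNA was 73.6 to 78.7 FPKM in SMA and 99.8 to 119.8 FPKM in control brains, and in early total RNA 74.0 to 80.4 against 127.9 to 135.6 FPKM. The most abundant, Cldn5, a tight-junction protein, changed by -1.36 ± 0.12 in early total (adjusted p = 0.318, limma) and by -1.03 ± 0.11 in late total RNA (adjusted p = 0.101). In late total RNA Erg, an endothelial transcription factor (-1.29, adjusted p = 0.0201), Slco1c1, a thyroid hormone carrier of brain vessels (-0.79, adjusted p = 0.0212), and Tek, the angiopoietin receptor (-1.65, adjusted p = 0.0404), passed adjustment.

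Pericyte markers were lower as well, 4 of 8 tested in early total, 3 in early polysomal, 6 in late total and 6 in late polysomal RNA, with 1 higher (Cspg4) in early total RNA, against the same 8.25%, 12.5%, 9.54% and 10.7% of all genes. Their sum in late total RNA was 43.56 to 50.04 FPKM in SMA and 74.4 to 82.4 FPKM in control brains, with Rgs5 the most abundant (-1.23 ± 0.09, adjusted p = 0.0258, limma). Globin sums in the same libraries ran from 2946 to 4287 FPKM in SMA and from 3601 to 4208 FPKM in controls. The part of vessel content in the globin values was not tested. Microglia markers were lower for 1 of 10 genes in early total and 2 in early polysomal RNA, higher for 4 and lower for 1 in late total and higher for 3 in late polysomal RNA, where the complement genes C1qa, C1qb and C1qc were higher. Neuron and glia markers were called for 2, 2, 1 and 0 of 14 genes, with Tubb3, listed at 0 in some libraries, among the early polysomal calls.

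**Figure D5:**
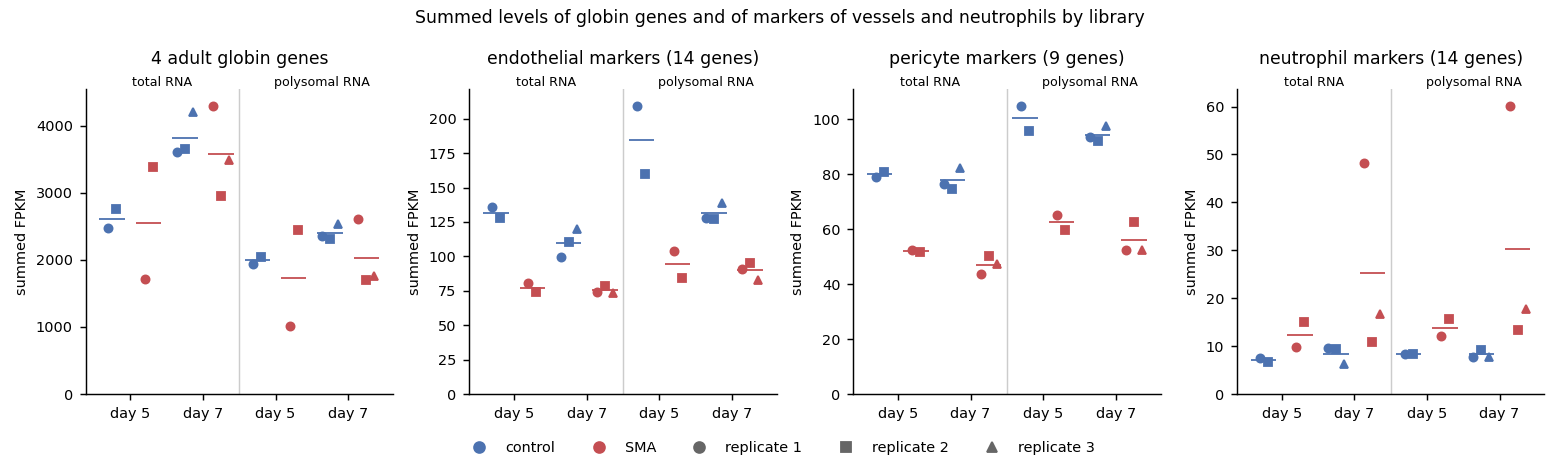
Summed FPKM of the 4 adult globin genes, 14 endothelial, 9 pericyte and 14 neutrophil markers in each library, on linear axes from 0, with control in blue, SMA in red, symbols for replicate numbers and bars for group means. Endothelial and pericyte sums separate the genotypes at both stages, globin sums overlap, and late SMA replicate 1 stands out in the neutrophil panel at 48.12 and 60.07 FPKM.

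Finally, the transcripts that varied most like the adult globins were sought over the 20 libraries. The measure was Pearson's r of log2(FPKM + 0.1) with the mean z-score of the 4 adult globins, given as a description because all genes of a library share its fraction, stage and composition. The 6 nearest genes outside the 8 were Fdx1l (r = 0.82), Isg20 (r = 0.819), Bola2 (r = 0.811), Vcpkmt (r = 0.809), Abhd17a (r = 0.803) and Bola3 (r = 0.796), with means of 1.068 (Isg20) to 128.1 FPKM (Bola2). Of the red-cell genes that did not enter the score, Slc4a1 had r = 0.705 and rank 126, Slc25a37 r = 0.645, Alas2 r = 0.557 and Bpgm r = 0.159. Bpgm thus did not vary with the others. Its r with single genes was 0.00423 for Hba-a1, 0.268 for Hbb-bt, 0.000551 for Slc4a1, -0.435 for Alas2 and -0.441 for Slc25a37.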

How the data were processed

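Total cytoplasmic and polysomal RNA of mouse brains gave 20 libraries of 100 bp reads from a stranded total RNA kit. The authors aligned the reads with TopHat2 2.0.14 to GRCm38.p4 with Gencode annotation and deposited FPKM values made with Cufflinks 2.2.1 (versions from the submitters' processing notes). The deposited FPKM have 2 decimals and a smallest value above 0 of 0.01. Read counts per gene could not be recovered from them, and they do not give the depth. Groups and replicate numbers came from the sample labels, which leave unsaid whether both fractions of 1 number are from 1 brain, and no 2 of the 190 column pairs were identical.

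Genes whose mean was 1 FPKM or more were tested with limma 3.58.1 in R 4.3.3 (lmFit, eBayes with a trend) on log2(FPKM + 0.1), which understates changes of low genes. The study called genes at p under 0.05, and its count-based tests could not be run on FPKM. Genotypes were compared within stage and fraction, fractions within a stage, and stages within a fraction, with adjustment over all 15247 genes. Scripts were tested on simulated data.

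The 8 genes and all lists were chosen with earlier results of these data known. Named beside the 8 genes are, of each list, up to 4 genes per comparison with the smallest p under 0.05, the most abundant gene and genes listed at 0, and the 6 genes most like the globins. A few further list members, such as Tal1, Epb42 and Hbq1a, and the genes with iron-responsive letters were chosen after their values were seen. Some list members are not reported here. Alternatives were pseudocounts of 1 and 0.01, filters, equal medians, quantile normalization, no trend, 1 model over all 20 libraries, a replicate block and leaving out each replicate number of a group, in both fractions. Corrections for transcript length and GC (lowess, span 0.3, 99.4% of tested genes matched) were chosen after seeing the data.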

Additional observations from a re-analysis of the deposited data

Results flagged for a closer look

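None of the 8 red-cell genes was flagged, and groups of 2 or 3 mice are too small for a test of single outlying libraries. Among the listed genes, the effect of SMA differed between the fractions on day 7 for Slc11a2, an iron transporter (0.45), and Erg (0.51), at an unadjusted p under 0.05 by limma and with neither past adjustment. In total RNA the SMA effect differed between day 7 and day 5, by an interaction with an unadjusted p under 0.05 and an adjusted p of 0.486 in each case, for Lmo2 (0.44), Ly6c1 (0.31), Aif1 (0.68), Erg (-0.52), Rgs5 (-0.35), Abcc9 (-0.58) and Map2 (-0.27). In polysomal RNA it differed for Aqp1 (0.73), Slc25a38 (0.45), Itga2b (0.56), Olig2 (0.35), Xk (-0.47), Abcc9 (-0.53), Pdgfrb (-0.30) and Map2 (-0.28), none past adjustment. The polysomal values rest in part on the early control libraries that stood apart.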

How the results depend on the processing

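Counts are of the 8 genes with p under 0.05. SMA against control gave 0 in early polysomal RNA, but 1 with genes above 0 in every library and 2 with 1 model over all 20 libraries. Late total RNA gave 1, but 3, 2, 3, 2 and 3 with genes above 0 in every library, equal medians, length correction, GC correction and both corrections. Quantile normalization lowered the calls of polysomal against total RNA from 5 to 3 in late controls and from 8 to 5 in late SMA brains, and those between stages from 2 to 1 in control total and in control polysomal RNA. Length correction, alone or with GC, gave 1 in control polysomal RNA, and both corrections gave 0 in SMA polysomal RNA. The difference between stages in polysomal RNA gave 1 with 1 model over all 20 libraries. The causes were not tested. Smaller moves were from 2 to 3 in late polysomal RNA (genes above 0 in every library and each correction), from 4 to 3 between stages in SMA total RNA (quantile normalization and the corrections with length), from 2 to 3 in control polysomal RNA between stages (genes above 0, 1 model over all 20 libraries), and, for polysomal against total RNA, from 2 to 3 in early controls (1 model) and early SMA brains (genes above 0, 1 model), from 5 to 6 (equal medians) and 4 (1 model) in late controls and from 8 to 7 in late SMA brains (1 model and each correction). Pseudocounts of 1 and 0.01, no low-value filter and no trend changed no call.

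Without 1 replicate number of a group, where a group left with 1 library was assumed to vary like the others, the genotype counts ran from 1 to 2 (early total), 0 to 3 (early polysomal), 1 to 2 (late total) and 2 to 5 (late polysomal). Changes in polysome association ran from 0 to 2 on day 5 and 0 to 1 on day 7. Polysomal against total RNA ran from 1 to 3, 1 to 5, 4 to 6 and 6 to 8 (early control, early SMA, late control, late SMA). Stage comparisons ran from 0 to 2, 3 to 4, 0 to 3 and 0 to 3 (control total, SMA total, control polysomal, SMA polysomal), and their differences from 0 to 1 (total) and 0 to 3 (polysomal). The sign turned with a call in 1 case, Slc4a1 in early polysomal RNA, which ran from -2.38 without early SMA replicate 2 to 0.74 without early SMA replicate 1. Other values that were not called with all libraries also turned sign between these 2 settings, some of them called under 1 of the settings, among them Slc4a1 in early total RNA (-0.80 to 0.22) and Hbb-bs between stages in SMA total (-0.29 to 0.58) and SMA polysomal RNA (-0.62 to 0.60).

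Replicate numbers were tried as a replicate block. Same-numbered total and polysomal libraries had correlated deviations of -0.0391 to 0.109 and control and SMA libraries -0.0902 to 0.0327. Control and SMA libraries of 1 number came from different mice. These correlations cannot show whether they shared anything else, as both kinds of pair correlated weakly. For the fractions the labels do not state 1 brain per number, but the sex read from Xist and Y-linked genes matched in 10 of 10 numbers, late SMA replicate 1 had the highest neutrophil sum in both fractions, and 3 of 6 late total libraries, all SMA, correlated best with their own number. With the block, polysomal against total RNA gained Hba-a1 on day 5 (-1.03 in controls and -0.83 in SMA), Hbb-bt (-0.32) and Bpgm (0.19) in late controls, and lost Slc4a1 in late SMA brains (-1.44). No block could be set between the stages, which have different mice.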
